A study of Mus musculus with 8 samples.

Results

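The transcripts described here are those of Kcna1, Cyfip2, Cacna1d, Blcap, Ube2o and Azin1, whose mRNAs hold, or may hold, coding sites edited by ADAR enzymes. Glutamate receptor transcripts were left out. The 6 genes were chosen by name, with earlier results of these data known, and 11 probes of the 20794 spots on the array carry those names. All 11 had a value on all 8 arrays and entered every fit. Brain RNA was taken from 4 mutant males aged 19 weeks, and 2-colour cDNA arrays set each against pooled brain RNA of wildtype males of that age. The mutants have the genotype ADAR-/-/GluR-B R/R: they lack ADAR2, which is encoded by Adarb1, and both Gria2 alleles specify arginine at the edited position of GluR-B, an AMPA receptor subunit. The pool mice carry neither change, so the absence of ADAR2 and the altered Gria2 alleles cannot be told apart in this comparison. The series' design counts 4 mice in the pool, whereas the labelling protocol names a larger number.

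ADAR enzymes convert adenosine to inosine in double-stranded stretches of RNA. Ribosomes read inosine as guanosine, so an edited codon can specify another amino acid, and the change is called recoding. The brain holds many of the best known recoded transcripts, most of which encode channels, receptors and proteins that organise the cytoskeleton at synapses. ADAR2 recodes an isoleucine in the pore of the Kv1.1 channel, a lysine of CYFIP2 and residues in the calmodulin-binding IQ domain of the Cav1.3 channel. The arrays measured the amount of transcript and not the share of it that was edited. In bulk tissue, fewer cells of a type and less RNA per cell cannot be told apart.

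Each mouse was hybridised on 2 arrays, once with the mutant in Cy5 and the pool in Cy3 and once with the dyes exchanged. The deposited values are log2 ratios of the channels, and all values below have the median of their array subtracted. The sources used here do not name the numerator, so no sign below is a direction of mutant against wildtype. Every probe is therefore described by 2 quantities. The mean ratio averages the 2 arrays of a mouse, and it contrasts mutant with pool if all ratios were deposited in the same sense between mutant and pool. The swap component takes the Cy5 array (mutant in Cy5), subtracts the Cy3 array (mutant in Cy3) and divides by 2. It is mutant over pool if the ratios were deposited as Cy5 over Cy3, and the mean ratio is then the effect of the dye. If all ratios run in the same sense between mutant and pool, the swap component is the effect of the dye. At most 1 of the 2 quantities therefore contrasts mutant with pool, also for probes past the threshold in both. The mouse was the replicate (n = 4), and limma tested each quantity against 0 over the 18797 probes with values on all arrays, with a threshold of 0.05 on the Benjamini-Hochberg adjusted p. The pool is 1 control sample, so the spread between wildtype mice is left out of these tests.

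The arrays held 20211 to 20559 usable ratios each. Ratios spread more widely with the mutant in Cy3 than with the mutant in Cy5: the standard deviation over probes averaged 0.76 in Cy5 and 1.10 in Cy3. No array ran against the others of its orientation, with Pearson correlations over probes of 0.224 to 0.43 among the Cy5 arrays and 0.459 to 0.68 among the Cy3 arrays. Spot names rest on a shift of 11 spots between annotation and values that was found in the data. Of the 88 values of these 11 probes, 2 matched a ratio of small whole numbers, which is how weak spots appear in this table. They were 1 value of Blcap probe 14783 and 1 value of Azin1 probe 15264.

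Among the 11 probes, 7 had a positive and 3 a negative mean ratio past the threshold. All 4 probes of Cyfip2, the probe of Kcna1, probe 11338 of Blcap and probe 2846 of Azin1 were positive, while Cacna1d, Ube2o and probe 15264 of Azin1 were negative. Over the whole array 34.7% of probes passed, 20.1% positive and 14.6% negative. At an unadjusted p below 0.05, 10 of the 11 passed, against 47.1% of all probes. The median mean ratio of the 11 probes was 0.66, against -0.03 over all probes. Because the genes were chosen with earlier results of these data known, these contrasts with all probes are descriptions. With the ratios as deposited, 8 of the 11 passed, 5 positive and 3 negative, and the median over all probes was -0.20. Positive calls then made up 39.5% of all calls in place of 58.0%.

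In the swap component 6 of the 11 probes passed, all negative: those of Kcna1 and Cyfip2 and probe 2846 of Azin1. The share over all probes was 7.84%, with 6.43% negative and 1.41% positive. The median swap component of the 11 probes was -0.54, against -0.03 over all probes. As 4 of the 11 probes are of Cyfip2, medians and counts over the 11 are not over separate transcripts. The same 6 probes were those whose ratios did not overlap between the dye orientations, each higher with the mutant in Cy3, a pattern shown by 16.7% of all probes, while 5.63% showed the reverse. No call in the swap component was made with the ratios as deposited, with runs of 48 spots centred, or without any one of the 4 mice (limma; 7 to 8 of the 11 probes at an unadjusted p below 0.05 in these fits, against 8 of 11 and 30.7% of all probes with every mouse and array medians subtracted).

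**Figure D1:**
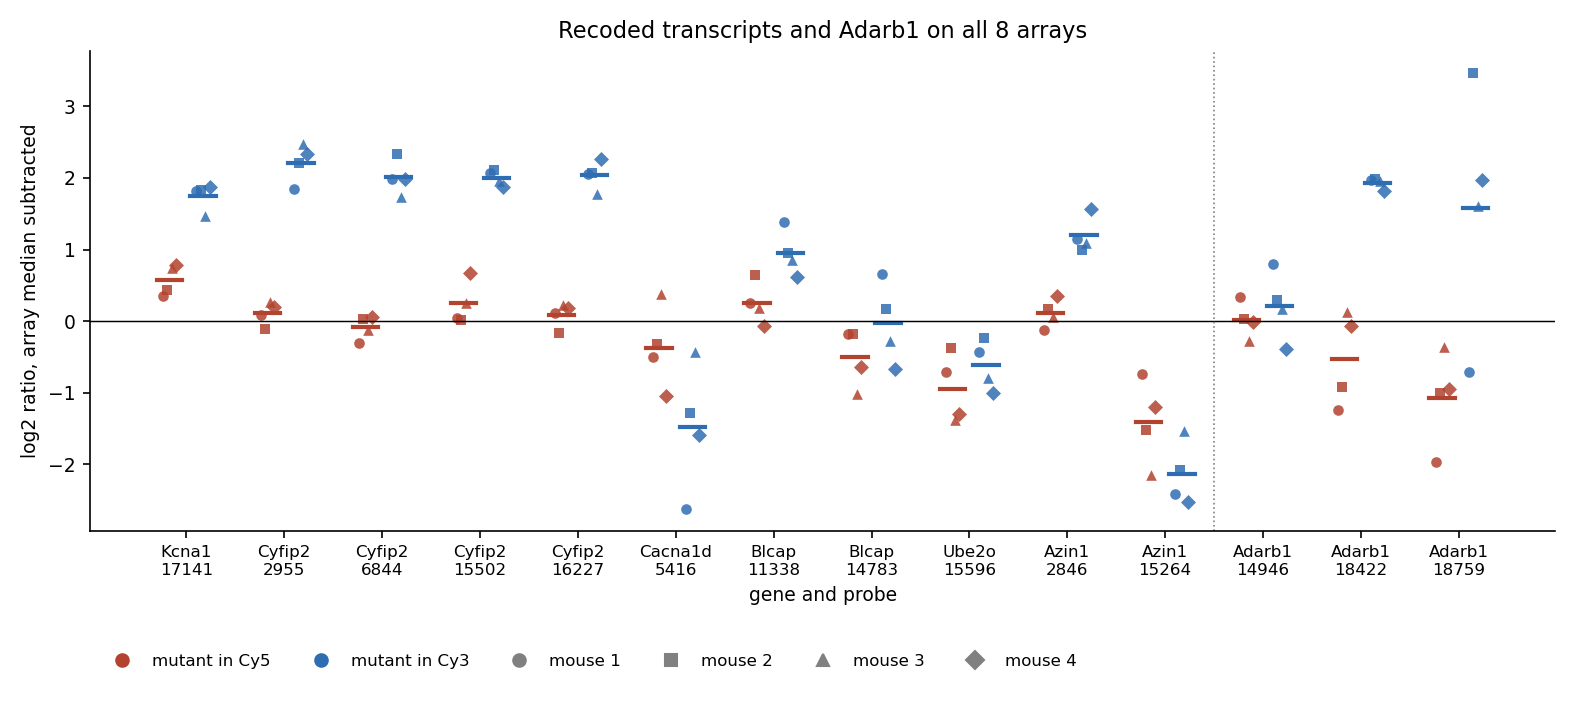
Log2 ratio, array median subtracted, of each probe of the recoded transcripts and, right of the dotted line, of Adarb1. Each point is 1 array, with the mutant in Cy5 in red and in Cy3 in blue, marker shapes for the 4 mice and bars for the mean of 4 arrays. The blue points of Kcna1 and Cyfip2 lie between 1.47 and 2.47, above all their red points.

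Kcna1 encodes Kv1.1, a voltage-gated potassium channel of axons and nerve terminals that limits repetitive firing. Its probe 17141 had log2 ratios of 0.35, 0.44, 0.74 and 0.79 with the mutant in Cy5 (mice 1 to 4). The arrays with the mutant in Cy3 gave 1.82, 1.84, 1.47 and 1.87. All 8 values were above 0, as in 13.1% of all probes, and the orientations did not overlap. The mean ratio was 1.16 ± 0.13 (moderated SE of limma, n = 4, adjusted p = 0.00592), with the mice between 1.09 and 1.33. The swap component was -0.59 ± 0.123 (limma adjusted p = 0.0453), negative in 4 of 4 mice. Among 18797 probes Kcna1 ranked 217 from the most positive mean ratio and 1368 from the most negative swap component. With runs of 48 spots centred, the mean ratio was 0.63 (limma adjusted p = 0.019) and the swap component -0.36 (0.12). The call in the mean ratio was lost on the 4 Cy5 arrays alone (0.58, limma adjusted p = 0.125). That fit called 0 of all probes, so every member call below was lost there too.

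Cacna1d encodes Cav1.3, an L-type calcium channel that opens at low voltages and supports pacemaking in neurons. Its 1 probe, 5416, had -0.50, -0.32, 0.38 and -1.05 with the mutant in Cy5, and -2.63, -1.29, -0.43 and -1.59 with the mutant in Cy3. Mouse 3 was the highest in both orientations, and the orientations overlapped. The mean ratio was -0.93 ± 0.269 (limma adjusted p = 0.042), with mice at -1.56, -0.80, -0.03 and -1.32. The swap component was 0.56 ± 0.163 (limma adjusted p = 0.084), positive in 4 of 4 mice. Kcna1 and Cacna1d, both recoded ion channels, thus had mean ratios of opposite sign. The call for Cacna1d was lost without mouse 1 (adjusted p = 0.108), mouse 2 (0.103) or mouse 4 (0.129), on the Cy5 arrays alone (0.401) and with probes that lacked some arrays added to the fit (0.0533, limma).

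Cyfip2 encodes a subunit of the WAVE regulatory complex, which drives branched actin assembly, and it binds the fragile X protein FMRP. It was measured by 4 probes. Probe 2955 had 0.09, -0.12, 0.26 and 0.20 with the mutant in Cy5, and 1.84, 2.21, 2.47 and 2.34 with the mutant in Cy3. Probe 6844 had -0.30, 0.02, -0.13 and 0.06 on the Cy5 arrays and 1.99, 2.34, 1.73 and 1.99 on the Cy3 arrays. The ratios of both probes were near 0 on the Cy5 arrays and near 2.0 on the Cy3 arrays. Probe 15502 had 0.05, 0.01, 0.26 and 0.67 with the mutant in Cy5, and 2.07, 2.11, 1.96 and 1.88 with the mutant in Cy3. Probe 16227 had 0.12, -0.17, 0.22 and 0.18 with the mutant in Cy5, and 2.05, 2.08, 1.77 and 2.27 with the mutant in Cy3. In each of the 4 probes every Cy3 array was above every Cy5 array, by a gap of 1.21 to 1.68.

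The mean ratios of Cyfip2 were 1.16 ± 0.14 for probe 2955, 0.96 ± 0.138 for probe 6844, 1.13 ± 0.129 for probe 15502 and 1.06 ± 0.13 for probe 16227, all past the threshold (limma adjusted p of 0.00592 to 0.00644). The swap components were -1.05 ± 0.116, -1.05 ± 0.115, -0.88 ± 0.129 and -0.98 ± 0.119 for the same probes (limma adjusted p = 0.0383 for each). Each was negative in 4 of 4 mice. Ordered from the most negative swap component among 18797 probes, the 4 probes ranked 32, 35, 132 and 63. Of 138 genes with at least 4 tested probes, 3 had a negative swap component past the threshold in every probe. They were Cyfip2, the elongation factor Eef2 (-0.82 to -0.73) and the ferritin heavy chain Fth1 (-0.76 to -0.53), named after their values were seen.

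The 4 Cyfip2 probes also differed little among themselves. Their mean ratios spanned 0.199, whereas the median span over 105 genes with 4 tested probes was 0.96, and 2 of these genes, Cyfip2 among them, spanned that little. With names read at the same spot number, 4 other spots carried the name, with mean ratios of 0.22 to 0.78. The shift behind the names was found in the data, so neither comparison is an independent check of the names. The positive mean ratio of Cyfip2 rested on the Cy3 arrays. On the Cy5 arrays alone the 4 probes stood at 0.11, -0.09, 0.25 and 0.09 (limma adjusted p of 0.428 to 0.762), and probe 6844 changed sign.

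**Figure D2:**
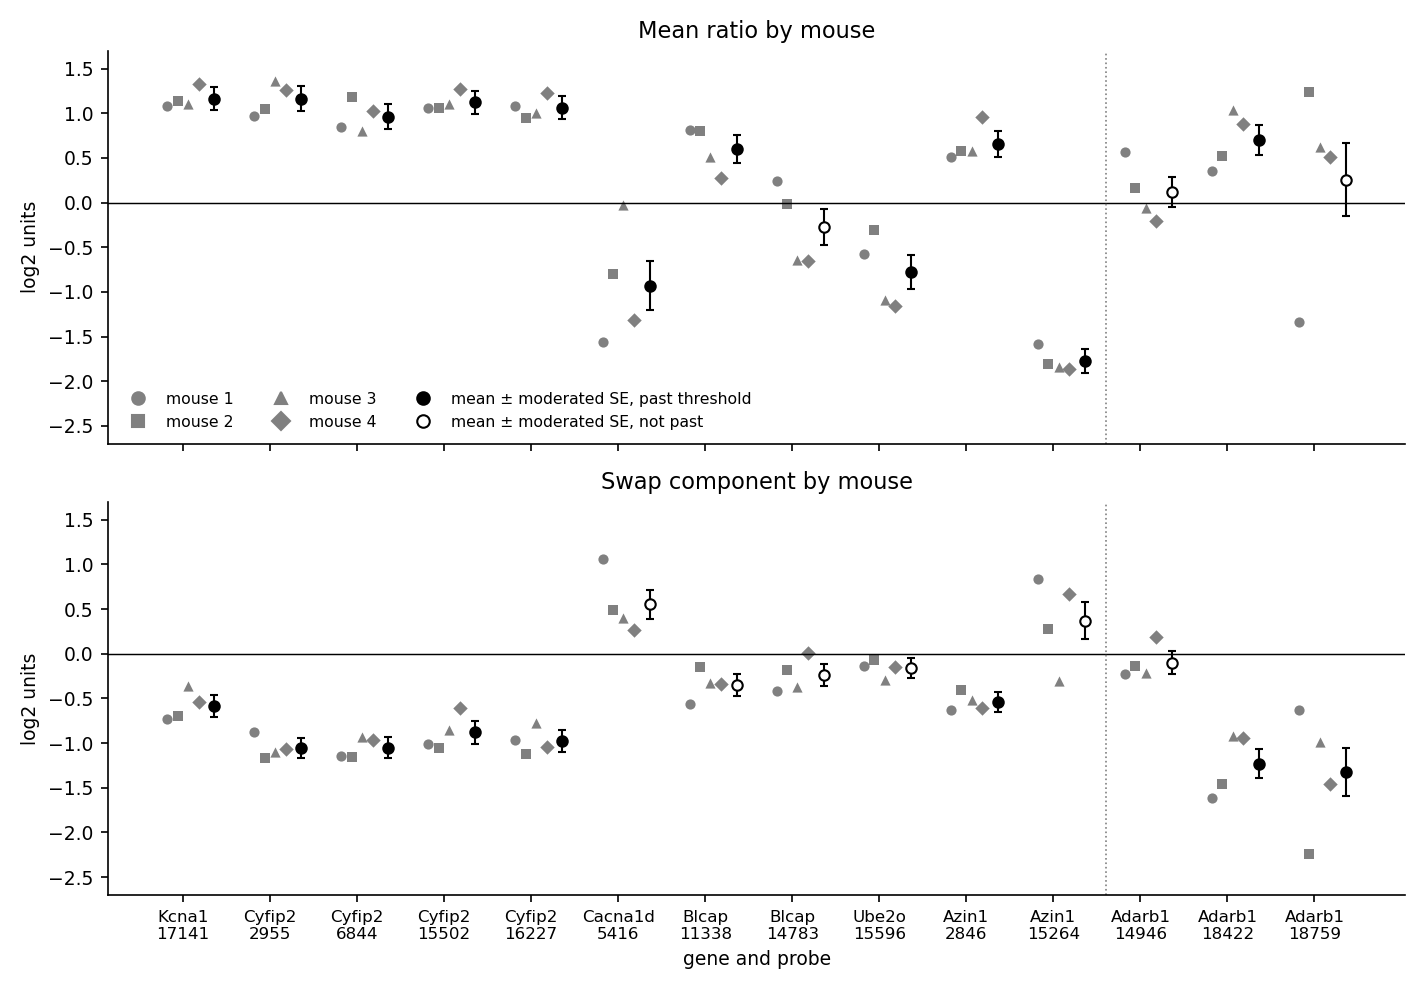
Mean ratio (top) and swap component (bottom) of each probe in log2 units, with 1 grey marker per mouse and the mean of 4 mice with its moderated SE beside them, filled where limma passed the threshold. The 4 Cyfip2 probes cluster near 1 in the mean ratio and near -1 in the swap component. The means of the Azin1 probes lie on opposite sides of 0 in both. In the swap component the mean of Azin1 probe 15264 missed the threshold and its mouse 3 lies at -0.31.

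Blcap encodes a small membrane protein known from bladder cancer, and sites near the start of its coding sequence are edited by both ADAR1 and ADAR2. Probe 11338 had 0.25, 0.65, 0.18 and -0.07 with the mutant in Cy5, and 1.38, 0.95, 0.85 and 0.61 with the mutant in Cy3. Probe 14783 had -0.18, -0.19, -1.01 and -0.65 on the Cy5 arrays and 0.65, 0.17, -0.28 and -0.67 on the Cy3 arrays. The values of probe 11338 were above those of probe 14783 on all 8 arrays, by 0.43 to 1.28, and the orientations overlapped in each. The mean ratio was 0.60 ± 0.154 for probe 11338 (limma adjusted p = 0.0292) and -0.27 ± 0.202 for probe 14783 (0.335). Their swap components, -0.35 ± 0.123 and -0.24 ± 0.127, missed the threshold (limma adjusted p = 0.121 and 0.258).

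In mice 1 and 2 both Blcap probes lay above their levels in mice 3 and 4. The mean ratios of probe 11338 were 0.82 and 0.80 in mice 1 and 2, and 0.51 and 0.27 in mice 3 and 4. Those of probe 14783 were 0.24 and -0.01 in mice 1 and 2, and -0.65 and -0.66 in mice 3 and 4. The labels give no group that separates these mice, but their arrays differed. Values matching ratios of small whole numbers made up 4.76% to 5.34% per array in mice 1 and 2, and 5.37% to 8.74% in mice 3 and 4. The interquartile range over spots was 0.80 and 0.76, then 0.99 and 0.98, with the mutant in Cy5 (mice 1 to 4). With the mutant in Cy3 it was 1.97 and 1.53, then 1.39 and 1.32. The difference between the mice was not tested. Nor was the order particular to Blcap. Ube2o stood at -0.57 and -0.31 in mice 1 and 2, and at -1.09 and -1.16 in mice 3 and 4. Other probes ran the other way, such as Cyfip2 probe 2955 (0.965 and 1.046, then 1.366 and 1.266). The call for probe 11338 was lost with the ratios as deposited (0.44, adjusted p = 0.0569), on the Cy5 arrays alone (0.25, 0.415), and without mouse 1 (0.0815), mouse 2 (0.109) or mouse 3 (0.0763, limma). With runs of 48 spots centred, probe 11338 had a mean ratio of 0.91 (limma adjusted p = 0.0269) and a swap component of -0.62 (0.0794), and the mean ratio of probe 14783 changed sign to 0.18 (0.441).

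Nnat, the imprinted neuronatin gene of neurons and endocrine cells, lies within the span of Blcap in the RefSeq annotation. Its probe 16443 had a mean ratio of 1.05 ± 0.135 (limma adjusted p = 0.00592) and a swap component of -0.58 ± 0.128 (0.0502). Which part of either transcript the probes cover is not known here.

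Ube2o encodes a large ubiquitin-conjugating enzyme that also selects its own substrates, among them orphan ribosomal proteins in maturing red cells. Probe 15596 had -0.71, -0.38, -1.39 and -1.30 with the mutant in Cy5, and -0.44, -0.24, -0.80 and -1.01 with the mutant in Cy3. All 8 values were below 0, as in 8.69% of all probes, and the orientations overlapped. The mean ratio was -0.78 ± 0.19 (limma adjusted p = 0.0249), with mice at -0.57, -0.31, -1.09 and -1.16. The swap component of -0.16 ± 0.112 missed the threshold (limma adjusted p = 0.368) and was negative in 4 of 4 mice. Unlike Kcna1 and Cyfip2, Ube2o stood farther from 0 with the mutant in Cy5 than in Cy3 (means of -0.94 ± 0.484 and -0.62 ± 0.35, SD, n = 4 arrays). With runs of 48 spots centred the mean ratio was -0.35 (limma adjusted p = 0.16), and the call was also lost without mouse 3 (0.0873) or mouse 4 (0.0819) and within either orientation alone (0.1 for Cy5, 0.0682 for Cy3).

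Azin1 encodes antizyme inhibitor, which releases ornithine decarboxylase from antizyme and so favours polyamine synthesis. Its recoding, a serine-to-glycine change best known from human liver tumours, is attributed to ADAR1. Probe 2846 had -0.12, 0.16, 0.06 and 0.35 with the mutant in Cy5, and 1.14, 0.99, 1.09 and 1.57 with the mutant in Cy3, with no overlap between the orientations. Probe 15264 had -0.74, -1.53, -2.15 and -1.20 on the Cy5 arrays and -2.42, -2.08, -1.54 and -2.53 on the Cy3 arrays, and these overlapped. On all 8 arrays probe 2846 was the higher, by 0.62 to 4.10.

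The mean ratio of Azin1 was 0.66 ± 0.143 for probe 2846 (limma adjusted p = 0.0179) and -1.77 ± 0.132 for probe 15264 (0.00592). The difference between the probes was 2.43 ± 0.304 (SD, n = 4 mice). Probe 15264 ranked 75 from the most negative mean ratio among 18797 probes, with mice between -1.87 and -1.58. Of 472 genes with at least 2 probes past the threshold, 111 (23.5%) had calls of opposite sign, so Azin1 was not alone in this. The swap component was -0.54 ± 0.113 for probe 2846 (limma adjusted p = 0.0447) and 0.37 ± 0.208 for probe 15264 (0.28). For probe 2846 the mean ratio missed the threshold in 6 of the alternatives (limma adjusted p of 0.0562 to 0.688), namely the ratios as deposited, runs of 48 spots centred, the Cy5 arrays alone, and without mouse 2, mouse 3 or mouse 4. For probe 15264 it was lost on the Cy5 arrays alone (-1.41, limma adjusted p = 0.0703), where no probe of the array was called.

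The disrupted gene, Adarb1, had 3 probes. Probe 18422 had -1.25, -0.93, 0.12 and -0.07 with the mutant in Cy5, and 1.97, 1.98, 1.96 and 1.82 with the mutant in Cy3. Probe 18759 had -1.97, -1.01, -0.37 and -0.95 on the Cy5 arrays and -0.71, 3.47, 1.60 and 1.97 on the Cy3 arrays. Their swap components were -1.23 ± 0.164 and -1.33 ± 0.267, ranks 8 and 4 from the most negative (limma adjusted p = 0.0383 and 0.0424). Probe 14946 stood at -0.10 ± 0.127 (0.628). Cyfip2, at -1.05 to -0.88, followed these 2 Adarb1 probes in the swap component and exceeded them in the mean ratio, where probe 18422 stood at 0.70 ± 0.166 (limma adjusted p = 0.0226) and probe 18759 at 0.26 ± 0.409 (0.653). A probe outside the disrupted part of Adarb1 would check nothing, and the position of the probes is not known here.

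**Figure D3:**
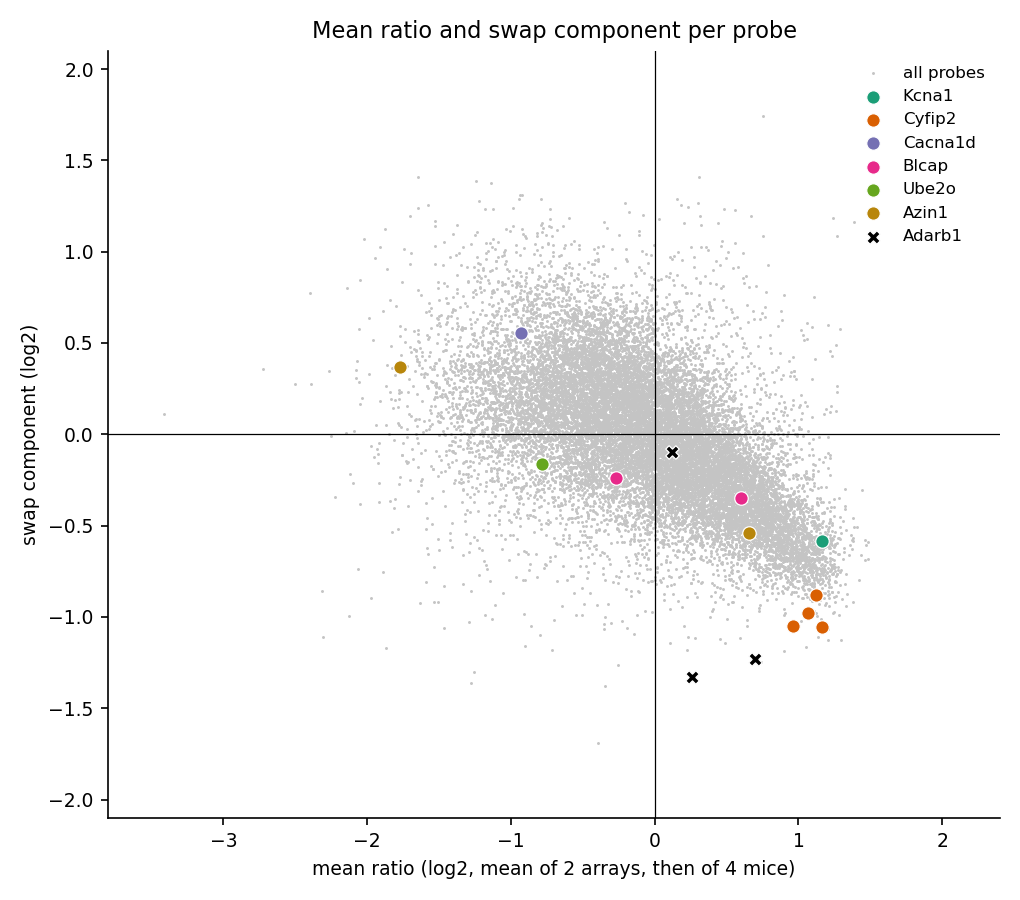
Mean ratio (horizontal axis) and swap component (vertical axis), both in log2 units, of 18797 probes in grey, the recoded transcripts in colour and the 3 Adarb1 probes as crosses. Kcna1 lies within the grey cloud at the lower right, while the 4 Cyfip2 probes lie at its lower edge, on the side of the 2 lowest Adarb1 probes.

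Across all probes a higher mean ratio went with a lower swap component (Spearman rho = -0.596 over 18797 probes, which share the same 8 arrays, so this is a description). A positive mean ratio with a negative swap component, both past the threshold, occurred in 5.62% of probes. Kcna1, all 4 Cyfip2 probes and Azin1 probe 2846 were among them.

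The probes of other genes with the most similar ratios over the 8 arrays were found by the root mean square difference. For Kcna1 they were Wwc2 (0.106) and Ptprn, a protein of dense-core vesicles (0.108). Those closest to Cyfip2 probe 2955 were Syt1, the calcium sensor of synaptic vesicles (0.206), and Olfm1 (0.216), nearer than any of the other Cyfip2 probes (0.264 to 0.362). Probe 6844 was nearest to its own sister probe 16227 (0.252), ahead of Rab6b (0.281) and Hnrnpu (0.281). For probe 15502 the nearest were Trp53inp2 (0.149) and Hpcal4 (0.16), and for probe 16227 Gabarapl1 (0.176) and Atp5b (0.193). These neighbours of Cyfip2 had swap components of -0.90 to -0.79, each less negative than the probe it was set beside.

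Cacna1d was nearest to Fbxo3 (0.32) and Retnla (0.446). Blcap probe 11338 was nearest to Fkbp4 (0.126) and Septin4 (0.174), and probe 14783 to Tomm34 (0.18) and Bcap31 (0.18). Ube2o was nearest to Ica1l (0.163) and Ptprm (0.166). Azin1 probe 2846 was nearest to Atg12 (0.154) and Cdk14 (0.174), and probe 15264 to Morc2b (0.349) and Dmd (0.396), while the 2 Azin1 probes differed from each other by 2.65.

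Of 17 further transcripts listed as recoded, 5 had a probe, 7 probes in all. In the mean ratio 2 were positive, 2 negative and 3 did not pass, with a median of -0.19. The share past the threshold over all probes was 34.7%. Son, a splicing cofactor, stood at 0.94 ± 0.145 in probe 3973 (limma adjusted p = 0.0072) and -0.24 ± 0.161 in probe 12438 (0.289). Cadps, a priming factor of dense-core vesicles, stood at -0.82 ± 0.134 in probe 14659 (0.00806) and 0.32 ± 0.253 in probe 16954 (0.355). The hedgehog transcription factor Gli1 had -1.25 ± 0.268 (0.0168). Copa, a coatomer subunit, had 0.70 ± 0.157 (0.0197) and the mitochondrial fusion protein Mfn1 -0.19 ± 0.294 (0.648, limma). None of the 7 probes passed in the swap component, against 7.84% of all probes (limma, lowest adjusted p = 0.0507, Gli1 at 1.09). At an unadjusted limma p below 0.05, 4 of the 7 passed there, against 30.7% of all probes.

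Partner genes of the proteins were described in the same way. For comparison, 34.7% of all probes passed in the mean ratio and 7.84% in the swap component. Of 12 listed partners of Kv1 channels 3 had a probe, and 2 of the 3 were positive and 1 negative in the mean ratio. These were the pore subunit Kcna6 at 0.75 ± 0.134 (limma adjusted p = 0.01), and the beta subunits Kcnab2 at 0.89 ± 0.152 (0.00913) and Kcnab1 at -0.83 ± 0.19 (0.0204). None of these 3 passed in the swap component with limma (2 at an unadjusted p below 0.05). For the WAVE complex and other Cyfip partners, 7 of 11 listed genes were tested by 12 probes. Of these, 4 were positive and none negative in the mean ratio, and 5 were negative in the swap component. The shares were 33.3% in the mean ratio, near that over all probes, and 41.7% in the swap component. The GTPase Rac1, which activates the complex, had a mean ratio of 1.19 ± 0.142 (limma adjusted p = 0.00592) and a swap component of -0.60 ± 0.113 (0.0396). The subunit Nckap1 had 0.74 ± 0.144 (0.0128) and -0.73 ± 0.125 (0.0383). Eif4e, the cap-binding factor that CYFIP proteins bind, had 0.75 ± 0.177 (0.0222) and -0.74 ± 0.127 (0.0383) in probe 6998 and a mean ratio of 0.17 ± 0.271 (0.652) in probe 9556. Its probe 9187 had a mean ratio of 0.43 ± 0.178 (0.106) and a swap component of -0.56 ± 0.117 (0.0452, limma). Brk1, a small subunit, had a swap component of -0.69 ± 0.135 (0.0413) in probe 16082 and 0.105 ± 0.262 (0.811, limma) in probe 7754. Wasf2, another subunit, had mean ratios of 1.13 ± 0.135 (0.00592) in probe 19269 and 0.04 ± 0.141 (0.851) in probe 11592.

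Calcium channel subunits and calmodulin, the ligand of the IQ domain, had 8 positive and 1 negative of 15 tested probes (9 genes) in the mean ratio, beside the negative value of Cacna1d. Calm2 reached 1.38 ± 0.145 in probe 17894 and 1.16 ± 0.132 in probe 13931, and Calm3 1.29 ± 0.145 in probe 19971 (limma adjusted p = 0.00592 for each). Among the channel subunits themselves, named after their values were seen, Cacna2d1 stood at 1.01 ± 0.13 in probe 1669 (0.00592) and -0.04 ± 0.202 in probe 6640 (0.891, limma). Cacnb4 stood at -0.60 ± 0.142 in probe 17745 (0.0222) and 0.42 ± 0.169 in probe 13560 (0.0992, limma). In the swap component 3 of the 15 passed, all of calmodulin and all negative. Of 10 probes (8 genes) of the polyamine pathway, 1 was positive and 2 negative in the mean ratio and none passed in the swap component (limma, lowest adjusted p = 0.0521, Oaz2; 4 at an unadjusted p below 0.05). The polyamine share in the mean ratio, 30.0%, was near the 34.7% of all probes. In the swap component 7.84% of all probes passed. The antizyme Oaz2 stood at 0.88 ± 0.126 (0.00643) and Oaz3 at -0.77 ± 0.187 (0.0243, limma) in the mean ratio. The spermidine synthase Srm stood at -0.72 ± 0.157 (0.0178) in probe 15378 and 0.08 ± 0.361 (0.884) in probe 7550, with ornithine decarboxylase Odc1 at 0.01 ± 0.139 (0.958, limma).

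**Figure D4:**
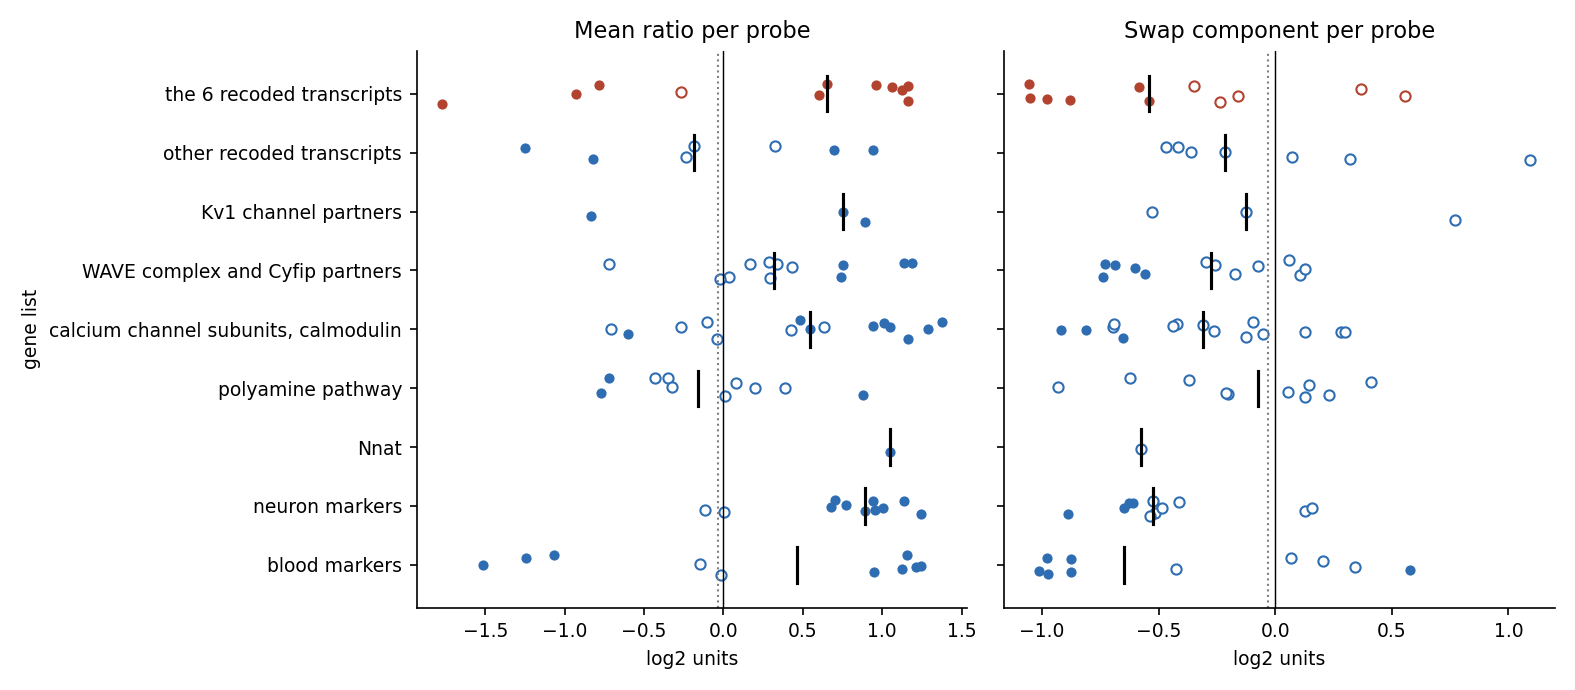
Mean ratio (left) and swap component (right) in log2 units of every tested probe of the recoded transcripts (red) and of partner and marker lists (blue). Filled points passed the limma threshold, black bars are list medians and the dotted line is the median of all probes. The recoded transcripts span -1.77 to 1.16 in the mean ratio, and neuron and blood markers have medians of 0.89 and 0.46 there.

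Probes of several marker lists were also past the threshold in these quantities. The shares over all probes were 34.7% in the mean ratio and 7.84% in the swap component. Of 11 tested neuron marker probes, 9 were positive in the mean ratio, with a range of -0.12 to 1.25, and 4 were negative in the swap component, with a range of -0.89 to 0.16. The other 2 neuron probes, both of Syt1, stood at -0.12 and 0.005 in the mean ratio. Astrocyte probes had 7 positive of 12 in the mean ratio and 2 negative in the swap component, and oligodendrocyte probes 5 positive of 7 and 3 negative. Blood markers had 5 positive and 3 negative of 10 in the mean ratio, and 1 positive and 5 negative in the swap component. Of the 6 probes of Hba-a1, a globin chain of red cells, 5 stood at 0.95 to 1.25 in the mean ratio, with swap components of -1.01 to -0.87, and the sixth, probe 19763, stood at -0.02 and -0.43. Alas2, the heme synthesis enzyme of red cells, had a mean ratio of -1.24 (limma adjusted p = 0.011), and the neutrophil gene S100a8 -1.51 (0.00655). S100a9, also of neutrophils, had a mean ratio of -1.07 (0.0223) and a swap component of 0.58 (0.0464, limma) in probe 4889, against -0.15 and 0.34 in probe 18858, where neither passed. Microglia markers had 1 positive and 1 negative of 3 tested probes in the mean ratio, endothelial and choroid plexus markers 1 positive each of 3 and 2, and none of these 3 lists had a call in the swap component (limma; 1 probe of each at an unadjusted p below 0.05). The part of these differences in the values of the recoded transcripts was not tested. Levels in the tissue cannot be read from ratios, so the labelled tissue could not be checked against its markers.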

How the data were processed

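Per the labels' protocols, column-purified total RNA was copied to cDNA, coupled to Cy3 or Cy5 in a second step and mixed with the pool. The sources used here name no scanner, background correction or normalization. In the deposited table the values are log2 ratios of the channels, inferred from the values, with 1 additive constant per array. Values coding an empty denominator (1 to 30 per array) were set missing, as were 221 to 553 empty cells. No spot intensities were used, so dim spots were not filtered. Matches to ratios of whole numbers up to 10 used a tolerance of 0.001 on the log2 scale.

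Array medians were subtracted. Each mouse gave 1 mean ratio and 1 swap component, and limma 3.58.1 (R 4.3.3; lmFit, eBayes, intercept only) tested the 4 mouse values over 18797 probes. The test was tried on simulated data. Errors marked ± are moderated SEs unless called SD. Alternatives were the ratios as deposited, probes with a value in every mouse, runs of 48 spots centred, robust eBayes, 8 arrays in one fit with the mouse as a random block, each orientation alone, and leaving out each mouse.

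Names follow annotation numbers up to 20000, shifted by 11 spots, which named 12131 spots of 8653 genes. All 12771 annotated spots were matched by gene identifier to RefSeq (GRCm38.p6). The members and lists were chosen with earlier results of these data known. Named were all probes of the members, of Adarb1 and of the 5 further recoded genes on the array, up to 3 probes per partner list with the largest absolute value among those past the threshold, other probes of those genes where the text turns on them, and the 2 nearest probes of other genes.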

Additional observations from a re-analysis of the deposited data

Results flagged for a closer look

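In 56 groups of 4 values, 1 value lay far from the others in 3 groups by Dixon's test, about what chance gives (1 in 20 groups). Kcna1 probe 17141 on the Cy3 array of mouse 3 stood at 1.47, against 1.82 to 1.87 in the other mice. The mean ratio of Azin1 probe 2846 was 0.96 in mouse 4, against 0.51 to 0.58 in the others. Adarb1 probe 18422 on the Cy3 array of mouse 4 stood at 1.82, against 1.96 to 1.98.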

How the results depend on the processing

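Of 266 comparisons of a single probe's value with an alternative, 179 kept their sign and side of the threshold, 78 kept their sign but lost the call, 1 gained it (Adarb1 probe 18759 without mouse 1) and 8 changed sign, 2 of which also lost a call. On the Cy5 arrays alone limma called 0 of all probes (4748 at an unadjusted p below 0.05) and 0 of the 11 member probes (4 unadjusted). There Cyfip2 probe 6844 stood at -0.089 and Adarb1 probe 18422 at -0.53, both calls in the mean ratio with all arrays, and Adarb1 probe 18759 at -1.07. With ratios as deposited or runs of 48 spots centred, the swap component had 0 calls over all probes (5785 and 4958 unadjusted) and 0 among the members. As deposited, Adarb1 probe 14946 turned to -0.044 in the mean ratio and 0.008 in the swap component, and with runs centred Blcap probe 14783 turned to 0.18. One fit of 8 arrays called 3149 probes in the swap component in place of 1473. Without 1 mouse, calls over all probes numbered 3728 to 4996 in the mean ratio (6527 with all mice) and 0 in the swap component whichever mouse was left out, and member calls 7 to 8 and 0. There the mean ratio of Adarb1 ran from -0.032 (without mouse 1) to 0.225 for probe 14946 and from -0.070 (without mouse 2) to 0.787 for probe 18759. With names read at the same spot number, chosen after seeing the data, 3 and 0 member probes passed in the mean ratio and swap component. The causes were not tested. The swap component is itself a difference within each mouse. Spot intensities were not used, so signal over background could not be weighed.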
